A study of Mus musculus with 8 samples.

Results

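The autosomal 5hmC regions found in both hippocampus and left ventricle were 1329 of the 21709 autosomal regions in the hippocampal list, or 6.12%. Each of them overlapped at least 1 ventricular region by 1 bp or more, and their partners were 1314 of the 11509 autosomal ventricular regions, or 11.4%. The other 20380 hippocampal and 10195 ventricular autosomal regions overlapped nothing in the other list. Members were chosen from coordinates, without reading the counts. The lists are, however, the authors' own merged peaks, which are places where reads are enriched, so coordinates and counts are not independent. The coordinates are those of mouse build mm9, and genes and sequence at these positions were not analysed here.

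5-hydroxymethylcytosine (5hmC) is made when TET enzymes oxidise 5-methylcytosine. It is a step on one route of active demethylation, and it also persists as a mark in its own right. Neurons carry much more of it than most other cells, largely over the bodies of expressed genes and at enhancers, while heart tissue carries less. In DIP-seq an antibody pulls down DNA fragments that carry the mark, and the sequenced fragments are counted over regions of local enrichment.

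The animals were C57BL/6 mice, either sham-treated (0 Gy) or exposed to protons at 1 Gy, with DNA isolated 20 weeks later. Each of the 4 groups, hippocampus at 0 Gy, hippocampus at 1 Gy, left ventricle at 0 Gy and left ventricle at 1 Gy, had 2 pools and therefore 2 libraries. Pooling drew on 5 mice per treatment group, and it was not stated in the sources used here whether each pool held 5 mice or the mice were divided. Both tissues are mixtures of cell types, so a change in cell numbers and a change in 5hmC per cell cannot be told apart. Age and sex were not given in the sources used here.

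Total counts over the lists ran from 110699 to 1912037 in the hippocampal libraries and from 49649 to 111035 in the ventricular ones; both hippocampal libraries at 1 Gy were at 1628905 or more. A count of 0 was compatible with up to 3 counts, which is 1.57 CPM (counts scaled to a list total of 1000000) in the deepest library and 60.4 CPM in the shallowest. A pair of libraries stood apart. In hippocampal 0 Gy pool 1 the number of autosomal regions jumped from 1275 holding 11 counts to 2165 holding 12, and in ventricular 1 Gy pool 1 from 531 holding 8 counts to 982 holding 9. These 2 libraries are called the stepped pools below, and values without them are given beside several of the results.

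The shared regions were held together mostly by partial overlaps. The 1345 overlapping pairs formed 1298 loci, of which 1255 joined 1 hippocampal with 1 ventricular region. The median overlap was 1514 bp (quartiles 788 and 2172 bp), 197 pairs shared less than 500 bp, and 44 shared less than 100 bp. Reciprocal overlap of 50% or more was reached by 710 pairs, and 5 pairs had identical coordinates. Sequence covered by both lists came to 1.99 Mb, which was 3.43% of the autosomal hippocampal length and 6.61% of the ventricular length.

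At the edge of the rule counts ranged widely on both sides. Just inside it, the hippocampal region chr6:49059611-49062429 shared 1 bp with a ventricular region and held 0 and 6 counts in the 0 Gy pools and 50 and 77 in the 1 Gy pools. The region chr10:77382309-77384852 shared 2 bp and held 11, 1, 46 and 45 counts. Just outside it, chr17:26668794-26671346 lay 9 bp from a ventricular region and held 7, 10, 108 and 80 counts. A further hippocampal region, chr1:192333194-192335737, missed by 11 bp and held 18, 0, 11 and 31. The inside regions were thus neither uniformly higher nor lower than the outside ones. Non-members lay at a median of 49.2 kb from the nearest ventricular region, and 958 of them (4.70%) lay within 2544 bp of one.

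That width, 2544 bp, was the most common in both lists, and pairs of regions of exactly this width show how the tissues' regions sat relative to each other. There were 668 such pairs. In 43 of them the centres lay 50 bp or less apart, and in 21 of these 10 bp or less; these are called aligned pairs, with a limit of 50 bp that was set after the distances had been seen. The other 625, called displaced pairs, were spread almost evenly over all distances at which regions of this width can still touch. Their density was 12.5 pairs per 50 bp on average, and between 9.35 and 14.8 in successive stretches, against 43 in the first 50 bp. The hippocampal centre was upstream in 330 displaced pairs and downstream in 295. A further 677 pairs had at least 1 member of another width.

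**Figure D1:**
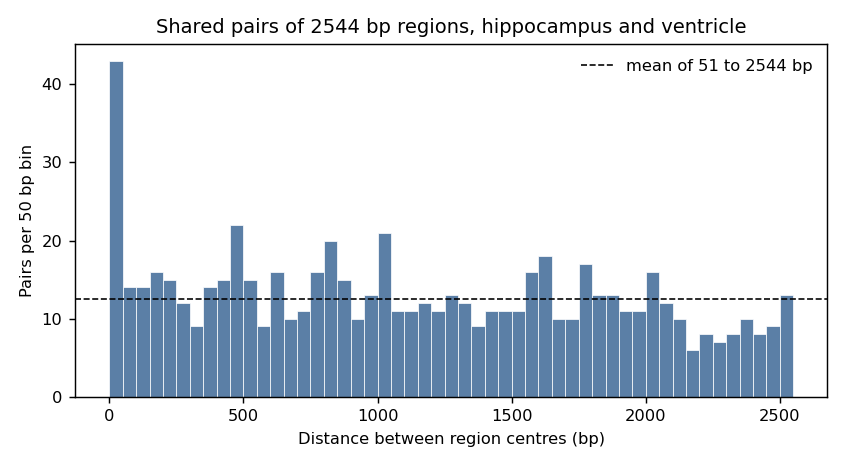
Distance between the centres of the hippocampal and the ventricular region (x axis, bp) against the number of pairs in each 50 bp bin (y axis), for the 668 shared pairs in which both regions were 2544 bp wide. The first bin holds 43 pairs, and the dashed line marks the mean of the remaining distances, 12.5 pairs per 50 bp.

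Aligned and displaced pairs differed in how many libraries held counts. Counts in all 8 libraries were found in 18 of the 43 aligned pairs (41.9%) and in 70 of the 625 displaced pairs (11.2%). The aligned pairs lay on 16 chromosomes, and 7 of them contained a high-count region, meaning one whose mean CPM in its tissue was over 20 times that of the median region. The median count in an aligned hippocampal region was 14 and 6 in the 0 Gy pools and 97 and 82 in the 1 Gy pools, against 12, 3, 74 and 66 in displaced ones. In the ventricle the aligned medians were 8 and 8 in the 0 Gy pools and 7 and 15 in the 1 Gy pools, and the displaced medians were 3, 0, 9 and 3. The aligned medians, with high-count pairs included, were thus above the displaced ones in 7 of the 8 libraries, the exception being the stepped ventricular pool.

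Mean levels in the tissues were more closely correlated in aligned loci than in the others. Across the 43 aligned loci the Spearman correlation of mean hippocampal with mean ventricular CPM was 0.757, and across the 36 without a high-count region it was 0.596. Across the 584 displaced loci of 1 region per tissue it was 0.135, and across the other 671 loci 0.166. Over all 1298 loci it was 0.247, and for single pairs of a hippocampal and a ventricular library it ran from 0.013 to 0.231. Single library pairs gave -0.13 to 0.591 (median 0.292) over the 36 aligned loci without a high-count region and -0.04 to 0.171 (median 0.032) over the displaced loci, so the ranges overlapped. Without both stepped pools the correlations of the means were 0.768 in aligned loci, 0.616 in the 36 and 0.095 in displaced loci. The points of each correlation share the same libraries, and no test was made of the difference.

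The libraries of one tissue did not always follow each other either. Across the 1298 loci the hippocampal 1 Gy pools correlated at 0.718 with each other, while the hippocampal 0 Gy pools correlated at -0.40. Hippocampal 0 Gy pool 1 was also negatively correlated with both 1 Gy pools (-0.23 and -0.21), whereas 0 Gy pool 2 was positively correlated with them (0.367 and 0.350). In the ventricle, 0 Gy pool 1 and 1 Gy pool 1 correlated at -0.33, 1 Gy pool 1 and 1 Gy pool 2 at -0.35, and the 0 Gy pools at 0.140. Both stepped pools are thus negatively correlated with every other pool of their tissue.

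**Figure D2:**
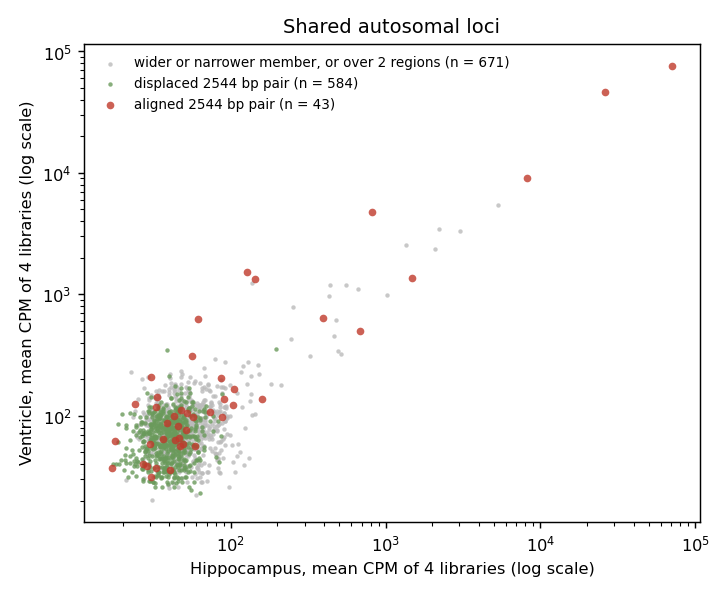
Mean CPM over the 4 hippocampal libraries (x axis, log scale) against mean CPM over the 4 ventricular libraries (y axis, log scale), 1 point for each of the 1298 shared loci. The 43 aligned loci (red) run along a diagonal up to the highest values (Spearman 0.757), while the 584 displaced loci (green) form a cloud (0.135).

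Shared regions were wider than the rest. The most common width was held by 64.4% of shared and 79.0% of unshared hippocampal regions, and by 73.9% of shared and 81.3% of unshared ventricular regions. Among hippocampal regions of that width 5.05% were shared, and among those over 4000 bp 12.7% (exact binomial 95% interval 10.1 to 15.7). In the ventricle the corresponding shares were 10.5% and 23.4% (17.3 to 30.5). A wider region can also be overlapped more easily, and the part of width alone in these shares was not tested.

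They also lay closer to their neighbours. The median gap to the nearest region of the same list was 16.02 kb for shared and 24.8 kb for unshared hippocampal regions, and 29.3 kb against 43.2 kb in the ventricle. A neighbour within 10 kb was present for 36.7% of shared hippocampal regions (95% interval 34.1 to 39.4) and 26.3% of unshared ones. The nearest neighbour was itself shared for 12.5% of shared and 5.79% of unshared hippocampal regions, and for 16.8% and 11.2% in the ventricle. Part of this was fixed by the rule, since regions of one list that touch the same partner are neighbours and are all shared: in 59 of the 166 hippocampal and 31 of the 221 ventricular cases the shared neighbour lay in the same locus. Among the 1267 hippocampal members that were the only region of their list in their locus, the median gap was 17.5 kb, 33.6% had a neighbour within 10 kb and 8.45% had a shared nearest neighbour (95% interval 6.97 to 10.1). Among the 1282 such ventricular members the values were 31.1 kb, 21.9% and 14.8% (12.9 to 16.9), so the differences from unshared regions were smaller but kept their direction.

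Along the chromosomes, a somewhat larger part of shared than of unshared regions lay at the distal end in both tissues. The last 5 Mb spanned by the lists on each chromosome held 6.998% of shared hippocampal regions (95% interval 5.68 to 8.50) and 5.22% of unshared ones (4.91 to 5.53). In the ventricle the values were 7.08% (5.75 to 8.60) and 5.45% (5.02 to 5.91). The shared regions of the tissues are partners of each other, so these are not independent results. The intervals treat regions as independent draws, although regions cluster, and no test was made. The first 5 Mb lie next to the centromere of the mouse chromosome, and there the values were closer. They were 4.14% (3.13 to 5.35) and 3.39% (3.15 to 3.65) in hippocampus. In ventricle they were 4.03% (3.04 to 5.24) and 3.35% (3.01 to 3.72). Within the first 100 kb, 22 of 49 hippocampal regions (44.9%) and 21 of 33 ventricular regions (63.6%) were shared, a window chosen after the positions had been seen. By chromosome, shared regions made up between 4.24% (chromosome 16) and 7.84% (chromosome 11) of hippocampal regions, and between 7.49% (chromosome 16) and 15.9% (chromosome 4) of ventricular ones.

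In each of the 8 libraries the mean count per kb was higher in shared than in unshared autosomal regions. The ratio was 1.43 and 3.23 in the hippocampal 0 Gy pools, 5.24 and 4.58 in the 1 Gy pools, 3.06 and 5.23 in the ventricular 0 Gy pools, and 1.35 and 2.68 in the 1 Gy pools. The lowest value of each tissue belonged to its stepped pool. On the log2 scale the ratio was 1.58 ± 0.77 (SD, n = 8 libraries), positive in 8 of 8 (exact sign-flip permutation test, two-sided, p = 0.00781, the smallest that 8 libraries allow, and 0.0391 after Benjamini-Hochberg adjustment over 5 tests). The call was lost when each region was weighed equally: a shared region held more counts than an unshared one in 6.99 percentage points more of the comparisons than 50% (exact sign-flip permutation test, two-sided, p = 0.0547). Without both stepped pools the log2 ratio was 1.95, positive in the 6 remaining libraries. Hippocampus (1.70 ± 0.84, n = 4) and ventricle (1.46 ± 0.81, n = 4) differed by 0.24 (exact permutation test, two-sided, p = 0.629, adjusted p = 0.629), and by 0.29 without both stepped pools. The same 2 loci on chromosome 2 held 23.6% to 56.4% of the counts in shared regions of each library. The 8 signs are thus not independent, and the part of peak calling in the excess was not tested.

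Much of this excess was in the high-count regions, since 10 of the 12 hippocampal and all 12 ventricular ones were shared. With them left out the log2 ratio was 0.33 ± 0.33 (SD, n = 8), with 6 of 8 libraries positive (exact sign-flip permutation test, two-sided, p = 0.0391, not adjusted). The negative libraries were the stepped pools, at -0.15 in the hippocampus and -0.08 in the ventricle. In the other 6 libraries the linear ratio was 1.15 to 1.70. Displaced pairs on their own gave log2 ratios of 0.03 to 0.35 in those 6 libraries against unshared regions of the same width, and aligned pairs without high-count regions 0.86 to 2.33. In the stepped pools the aligned pairs gave 0.13 in hippocampus and -0.26 in ventricle. Outside the stepped pools, the mean count of these aligned regions thus stood further above that of unshared ones than the mean of displaced regions did. Their medians differed less from the displaced ones. In hippocampus they were 13 and 3.5 in the 0 Gy pools and 85 and 71.5 in the 1 Gy pools, against 12, 3, 74 and 66. In ventricle they were 3.5 and 4 in the 0 Gy pools and 5 and 11.5 in the 1 Gy pools, against 3, 0, 9 and 3.

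**Figure D3:**
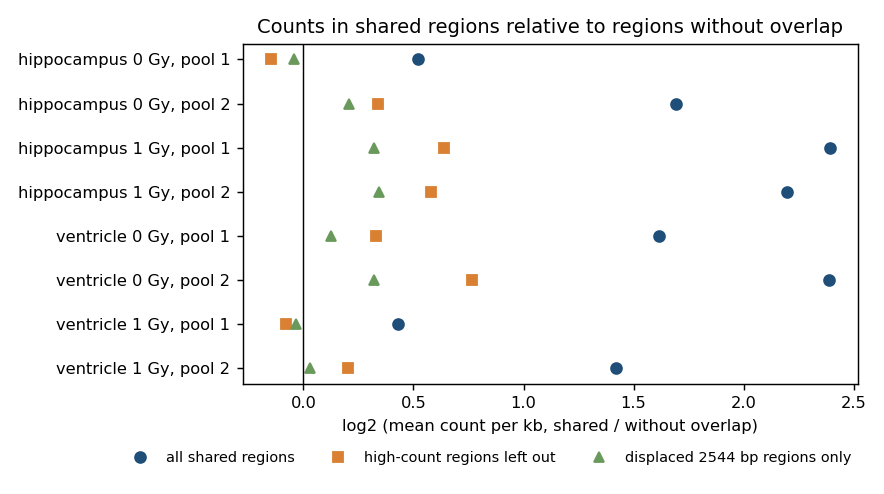
Log2 of the mean count per kb in shared regions over that in autosomal regions without overlap (x axis), 1 row for each of the 8 libraries, for all shared regions (circles), without high-count regions (squares) and for displaced pairs of the most common width (triangles, against unshared regions of that width). All circles lie above 0, while squares and triangles lie below 0 in the stepped pools, hippocampus 0 Gy pool 1 and ventricle 1 Gy pool 1.

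The typical shared region differed less than these means. Its median count in hippocampus was 11 and 4 in the 0 Gy pools and 87 and 77 in the 1 Gy pools, against 12, 3, 64 and 57 in unshared regions. In the ventricle it was 4 and 1 in the 0 Gy pools and 7 and 6 in the 1 Gy pools, against 2, 0, 8 and 4. Shared medians were lower than unshared ones only in the stepped pools. Counts in every hippocampal library were found in 1017 shared regions (76.5%) and in 69.3% of unshared ones, and counts in every ventricular library in 311 (23.7%) and 13.6%. At the level of loci, 271 of 1298 (20.9%) held counts in all 8 libraries.

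A few loci held a large share of the counts in shared regions. The highest was chr2:98505767-98508310, an aligned pair, with 17476 and 63966 CPM in the hippocampal 0 Gy pools, 108492 and 92252 in the 1 Gy pools, 84908 and 123849 in the ventricular 0 Gy pools and 21299 and 75174 in the 1 Gy pools. Mean levels were 70547 ± 39878 CPM in hippocampus and 76308 ± 42274 CPM in ventricle (SD, n = 4 each), so the libraries of the tissues overlapped. Its neighbour chr2:98501468-98504011 was the second highest, at 26083 ± 12903 and 46632 ± 26171 CPM. Within a library the first locus held 1.97 to 2.87 times the counts of the second in the hippocampus and 1.54 to 1.70 times in the ventricle, with no overlap between the 4 libraries of each tissue; this contrast was noticed in the data and was not tested. Together these 2 loci held between 23.6% and 56.4% of all counts in shared regions of a library.

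The remaining 8 of the 10 highest loci lay on 3 chromosomes. The third, chr9:35111504-35114047, was an aligned pair with 8139 ± 5153 CPM in hippocampus and 9087 ± 4909 CPM in ventricle (SD, n = 4 each). A further 5 lay within the first stretch of chromosome 9, from chr9:2999461-3003648 to chr9:3034828-3037379, and had wider regions. The first of them had 1603 and 5321 CPM in the hippocampal 0 Gy pools, 7714 and 6794 in the 1 Gy pools, 6700 and 8480 in the ventricular 0 Gy pools and 1796 and 4836 in the 1 Gy pools. The locus chr12:3108505-3111048 had the same coordinates in both lists, at 1489 ± 884 and 1354 ± 730 CPM. In each of these 7 loci, and in both on chromosome 2, the lowest hippocampal library was 0 Gy pool 1 and the lowest ventricular library was 1 Gy pool 1.

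The remaining locus, chr5:148421617-148424160, had the same lowest libraries, but its hippocampal values were closer together. It had 634 and 1210 CPM in the 0 Gy pools and 695 and 739 CPM in the 1 Gy pools. In the ventricle it had 1699 and 13374 CPM in the 0 Gy pools and 1255 and 2639 in the 1 Gy pools, so 1 0 Gy pool stood far above the other 7 libraries. The aligned pairs chr8:73955513-73958056 and chr2:123828439-123830982 had the same high library, with 257 and 227 counts in ventricular 0 Gy pool 2 against 15 to 52 and 13 to 34 in the other ventricular libraries.

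**Figure D4:**
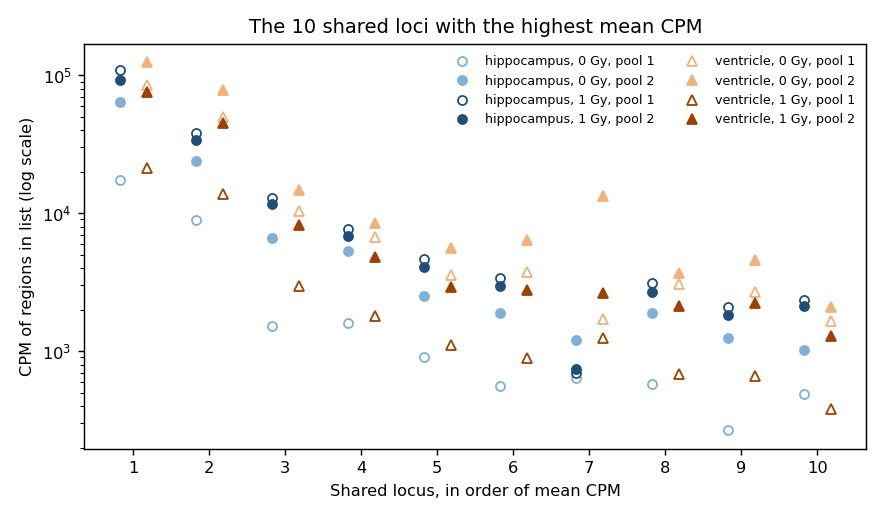
CPM (y axis, log scale) of the 10 shared loci with the highest mean CPM (x axis, in descending order), 1 point per library, circles for hippocampus and triangles for ventricle. In 9 of the 10 the open pale circle (hippocampus 0 Gy, pool 1) is the lowest hippocampal point by a wide margin, and locus 7, on chromosome 5, has its highest point in ventricle 0 Gy, pool 2.

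Other loci stood out by their shape. The longest overlap, 5898 bp, was at chr11:3041430-3047327, with 668 ± 428 CPM in hippocampus and 1106 ± 628 CPM in ventricle (SD, n = 4 each). Only 4 loci joined 2 hippocampal with 2 ventricular regions. The longest of them, chr12:109480853-109490912, held 20 and 12 counts in the hippocampal 0 Gy pools, 318 and 292 in the 1 Gy pools, 17 and 0 in the ventricular 0 Gy pools and 24 and 5 in the 1 Gy pools. Among aligned pairs, chr14:30774036-30776579 held 0 and 13 counts in the hippocampal 0 Gy pools and 989 and 10 in the 1 Gy pools, so the 1 Gy pools themselves were far apart. The aligned pair chr4:70037701-70040244 held 50 and 49 raw counts in the hippocampal 0 Gy pools against 2062 and 1639 in the 1 Gy pools. The 0 Gy pools differed in depth, with 266361 and 110699 total counts, so equal counts there are not equal levels.

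Whether the tissues differed at shared loci was tested on counts summed over each locus. The 1068 of 1298 autosomal loci that passed a filter on low counts were fitted with those of the sex chromosomes, 1096 in all. None passed a false discovery rate of 0.05 in edgeR's quasi-likelihood test, against 0% of all loci tested. At an unadjusted p under 0.05 there were 40 of 1068, against 3.74% of all loci tested. DESeq2 also gave 0 past its adjusted threshold. It had 32 of 1068 at an unadjusted p under 0.05, against 33 of all 1096 loci tested. The median standard error of a log2 difference was 1.34, so only differences of many-fold could have been resolved. The regions compared do not share coordinates, and a wider region in one tissue collects more counts there.

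The 3 loci with the smallest p-values had unequal widths, and the part of width in their differences was not tested. In each of them both ventricular 0 Gy pools held 0 counts. At chr11:32464139-32469775 the hippocampal libraries held 9, 14, 288 and 190 counts and the ventricular ones 0, 0, 12 and 0, with a log2 difference of 5.05 ± 1.76 (SE) and an edgeR adjusted p of 0.962. Its ventricular region was the narrower, chr11:32464368-32466911. The loci chr2:29882881-29887875 and chr4:130299814-130306716 followed, with log2 differences of 4.77 ± 1.71 and 5.16 ± 1.86 (SE), the same adjusted p in edgeR, and again a wider hippocampal region. With libraries scaled to their total counts, 3 loci were called lower in hippocampus. They are named here because the count is small: chr5:148421617-148424160, chr6:73468551-73471095 and chr8:73955513-73958056, with edgeR adjusted p = 0.00133, 0.0286 and 0.00133 under that scaling. Each had its highest value in ventricular 0 Gy pool 2, with 664, 205 and 257 counts.

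Every hippocampal library lay above every ventricular one, after normalization, in 5 loci, against 0.547% of loci tested, and below in 2, against 0.182%. These 7 are named after their values were seen. The highest in hippocampus was chr5:124688116-124694289, with 772 ± 132 normalised (TMM) CPM of the locus counts against 185 ± 260 CPM in ventricle (SD, n = 4 each). These CPM are taken over loci only and cannot be compared with the list-total CPM above. The others above were chr11:113730126-113736163, chr15:99553101-99554936, chr16:30828277-30830820 and chr19:53100298-53107129. Those below were chr12:100755097-100757640, at 270 ± 112 against 718 ± 371 CPM, and a locus on chromosome 18. In the loci on chromosomes 5, 11 and 19 the hippocampal stretch was the longer, and on chromosome 18 the ventricular one. Those on chromosomes 12 and 16 had equal widths, and on chromosome 15 the ventricular region was the wider. Counts were not scaled to length. None of these 7 loci had an adjusted p under 0.96 in edgeR.

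The share of a library's autosomal counts that lay in shared regions was ordered by dose in opposite directions in the tissues. In hippocampus it was 8.91% and 18.1% in the 0 Gy pools and 26.3% and 23.8% in the 1 Gy pools, so the 1 Gy pools were above both 0 Gy pools. In ventricle it was 28.9% and 41.0% in the 0 Gy pools and 15.2% and 26.2% in the 1 Gy pools, so they were below. The difference was 11.6 percentage points in hippocampus (25.1 ± 1.78 against 13.5 ± 6.48, SD, n = 2 each) and -14.2 in ventricle (20.7 ± 7.81 against 34.9 ± 8.52). Each gave p = 0.33 in a two-sided exact permutation test, the smallest that 2 pools against 2 allow (adjusted p = 0.417). In hippocampus both 1 Gy pools were also far deeper than both 0 Gy pools, so dose and depth cannot be told apart there.

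High-count regions made most of these differences. Without them the shares were 5.76%, 7.88%, 9.53% and 9.19% in hippocampus, a difference of 2.54 points, and 14.2%, 18.3%, 11.1% and 13.1% in ventricle, a difference of -4.11 points. The lowest value of each tissue was again in its stepped pool. Without both stepped pools the differences over all shared regions were 7.003 and -8.71 points.

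For single regions, the dose was tested over each whole list. In hippocampus 1326 of the 1329 members passed the filter on low counts and 0 passed a false discovery rate of 0.05 in edgeR, against 0% of the 21498 regions tested. At an unadjusted p under 0.05 there were 37 members, against 1.04% of all regions. DESeq2 called 0 members, against 1 of all 21498 regions. It had 66 of 1326 members at an unadjusted p under 0.05, against 753 of all 21498 regions. The median log2 change of members was 0.48 and that of all regions 0.11. Other scalings moved the median of all regions, to -0.27 with total counts and -0.15 with median-ratio factors, but members stayed 0.38 to 0.40 above it under all 3 scalings. Without 0 Gy pool 1 members were no longer above the rest (0.67 against 0.71).

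The 1 Gy pools were both above the 0 Gy pools in 510 hippocampal members (38.5%), against 22.6% of all regions tested, and below in 55 (4.15%), against 8.46%. With total counts as the scaling these were 323 members (24.4%, against 12.0%) and 117 (8.82%, against 14.9%). The median log2 change was 0.69 in the 42 aligned members that passed the filter, 0.29 in the 582 displaced ones and 0.65 in the 628 members of pairs with another width. All 3 values come from the same 4 libraries and stand without a test. Both hippocampal 1 Gy pools were also far deeper (1912037 and 1628905 total counts) than both 0 Gy pools (266361 and 110699). Dose and depth therefore cannot be told apart in the hippocampal dose values here and above.

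**Figure D5:**
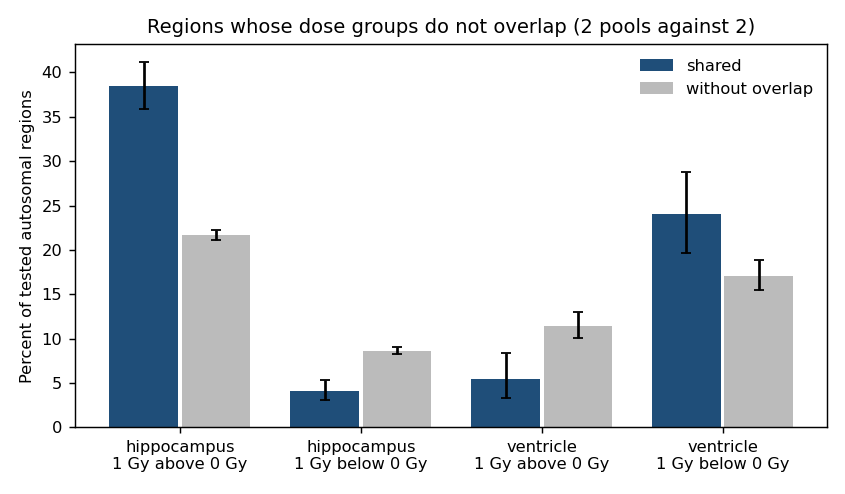
Percent of tested autosomal regions (y axis) in which both 1 Gy pools lay above or below both 0 Gy pools, for shared regions (dark) and regions without overlap (grey), with exact binomial 95% intervals over regions, which share libraries and are not replicates. In hippocampus 38.5% of shared regions had 1 Gy pools above sham, and in ventricle 24.0% had them below.

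The hippocampal members with the smallest p-values that were higher at 1 Gy included chr12:68158953-68161501, with 7 and 6 counts in the 0 Gy pools and 681 and 470 in the 1 Gy pools. Its log2 change was 3.37 ± 0.95 (SE), with 36.8 ± 20.8 against 368 ± 65.0 normalised (TMM) CPM (SD, n = 2 each) and an edgeR adjusted p of 1.00. In chr12:60156091-60159354 the counts were 3 and 2 against 134 and 98, a log2 change of 2.59 ± 0.88 (SE). Lower values were found at chr1:64165075-64167618, with 14 and 10 counts against 15 and 20 in the far deeper 1 Gy pools, a log2 change of -2.44 ± 0.82 (SE). The regions chr10:120027420-120029963 and chr4:99650491-99653034 followed at -1.73 ± 0.75 and -1.32 ± 0.72 (SE). The groups did not overlap in any of these regions, and none passed the threshold (edgeR adjusted p = 1.00 in each).

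Leaving out a hippocampal 0 Gy pool changed the number of calls. Without 0 Gy pool 1, edgeR called 207 members higher at 1 Gy, against 10.1% of all regions, and 45 lower, against 5.32%, which is 252 in all. Without 0 Gy pool 2 it called 385 higher, against 15.4%, and 19 lower, against 5.23%, or 404 in all. Only 84 members were in both lists, 33.3% of the first and 20.8% of the second. Of these 55 were higher both times and 29 were called in opposite directions, so the 0 Gy pools disagreed on the sign. The remaining 0 Gy pool held 0 counts in 149 of the 207 and in 88 of the 385 higher calls. Each of these fits has 1 0 Gy library, which is assumed to vary like the irradiated ones.

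In ventricle only 350 of 1314 members (26.6%) passed the filter. None passed the false discovery rate in edgeR, against 0% of the 2252 regions tested, and 10 had an unadjusted p under 0.05, against 2.53% of all. DESeq2 called 0, and had 23 of 350 members at an unadjusted p under 0.05, against 167 of all 2252 regions. The median log2 change was -0.01 in members and 0.20 in all regions, and without 1 Gy pool 1 it was -0.17 and 0.19. With total counts as the scaling the values were 0.22 and 0.42, and with median-ratio factors 0.27 and 0.47. The sign in members thus depended on the scaling, while members stayed below all regions. When single libraries were left out, the median of members ran from -0.32 to 0.63. Both 1 Gy pools lay below both 0 Gy pools in 84 members (24.0%), against 18.3% of all regions, and above in 19 (5.43%), against 10.3%. With median-ratio factors as the scaling these were 70 members (20.0%, against 15.5%) and 30 (8.57%, against 13.9%). The aligned members had a median of -0.87 (22 regions) and the displaced ones 0.24 (99 regions).

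Several ventricular members were at 0 in both pools of a dose. The region chr7:146685696-146688264 held 13 and 36 counts in the 0 Gy pools and 0 and 0 in the 1 Gy pools, at least 14.4-fold lower after 1 Gy when 3 counts per 1 Gy library are taken as the floor. The region chr8:49031388-49033956 held 21 and 25 counts against 0 and 0, at least 12.4-fold lower on the same floor. In chr4:149184377-149186920 the counts were 19 and 34 against 0 and 1. In the other direction, chr11:67351349-67353892 held 0 and 0 counts against 11 and 23, at least 3.44-fold higher, and chr2:92384374-92387502 held 0 and 0 against 13 and 17, at least 3.12-fold higher. The region chr2:180972643-180975399 held 0 and 2 against 17 and 29. Each of these had an edgeR adjusted p of 1.00, and counts this low carry large sampling error. A region at 0 in both pools of a dose passed the filter on low counts only through the other dose. These regions were also picked for non-overlapping groups and small p-values. The fold bounds thus describe picked regions and are no evidence of a dose effect.

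Estimated log2 changes with dose at the same locus were nearly uncorrelated between the tissues. There were 329 loci with 1 region per tissue that passed both filters. The log2 change was positive in both tissues in 122 and negative in both in 38. It was positive in hippocampus and negative in ventricle in 132, and the reverse in 37. These signs are under TMM scaling and were not counted under other scalings. The Spearman correlation across these loci was -0.07. The median standard error of a log2 change was 0.93 in tested hippocampal and 2.19 in tested ventricular members. With errors of that size the correlation cannot show whether the underlying changes ran in parallel. The test of the difference between the tissues' dose effects found 0 of 1068 loci in edgeR, against 0% of loci tested. It had 72 at an unadjusted p under 0.05, against 6.93%. DESeq2 found 0, and had 160 of 1068 at an unadjusted p under 0.05, against 162 of all 1096 loci tested. The median standard error in edgeR was 2.68 on the log2 scale. The smallest p-values belonged to the loci that held chr7:146685696-146688264 and chr8:49031388-49033956 and to chr1:90110911-90115015, where the ventricular 0 Gy pools held 17 and 6 counts and the 1 Gy pools 0 and 0 while the hippocampal 0 Gy pools held 4 and 4 and the 1 Gy pools 192 and 192 (edgeR adjusted p = 0.593 in each).

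Among the 10 highest loci, 9 had opposite signs in the tissues, and none passed a test. Their log2 change after 1 Gy in hippocampus was -0.04 at chr5:148421617-148424160 and between 1.37 and 1.89 in the other 9. In ventricle it was between -1.26 and -0.63 in all 10. At chr12:3108505-3111048 the values were 1.89 ± 1.00 (SE) in hippocampus and -0.71 ± 0.69 in ventricle (edgeR adjusted p = 1.00 in both). These loci also had their lowest values in the stepped pools, which are a 0 Gy pool in hippocampus and an 1 Gy pool in ventricle. The part of those pools in the signs at these loci was not tested.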

How the data were processed

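5hmC DIP-seq libraries of 8 pools were compared. The deposited files hold raw counts of reads, by region, over 1 list of merged peaks per tissue, whose coordinates are the same in its 4 libraries. CASAVA 1.8.2, Bowtie 1.0.0, DESeq2 and build mm9 are named in the submitters' processing notes without their roles. Not given in the sources used here were the peak caller, merging rule, duplicate handling and input control. To print starts, 1 was added, on the assumption of BED intervals.

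Regions overlapping by 1 bp or more were joined into loci. CPM were taken over each library's list total. Dose, tissue and interaction were tested with edgeR 4.0.16 (quasi-likelihood, TMM, filterByExpr, Benjamini-Hochberg over all features tested, threshold 0.05), checked on simulated data, with DESeq2 1.42.0 as an alternative. Values over libraries were tested with exact permutation tests. P-values measure the spread between pools. Intervals are exact binomial intervals over regions. They treat regions as independent draws, although regions cluster and share libraries, and they do not hold the spread between pools. PCR copies carry no molecular identifier, so they could not be told apart from separate fragments in the counts.

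Members and lists were chosen with earlier results of these data known. The regions named were the 10 loci of highest mean CPM, up to 3 per direction by smallest p among members whose dose groups did not overlap, the 3 loci of smallest p for tissue and interaction, those joining most regions, those at the edge of the overlap rule, and the longest overlap. Of these, not every one is described. Alternatives were other scalings, filters, overlap rules and widths, a replicate block, and leaving out each library. The pools called stepped, the aligned pairs, and the fits without both stepped pools or on the most common width without high-count regions, the other scalings of non-overlap counts, and the spacing of members alone in their locus were chosen after seeing the data.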

Additional observations from a re-analysis of the deposited data

Results flagged for a closer look

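The change with dose in the share of autosomal counts lying in shared regions differed between the tissues. Irradiated minus sham was 11.6 percentage points in hippocampus and -14.2 in ventricle, a difference of 25.8 points. Both hippocampal 1 Gy pools lay above both 0 Gy pools, and both ventricular 1 Gy pools lay below both 0 Gy pools. The comparison of the tissues' dose differences was not among the planned tests. A two-sided exact permutation of the dose labels within each tissue gave p = 0.0556, the smallest this design allows. The adjusted p of this permutation test was 0.139 (Benjamini-Hochberg over 5 tests), so the difference did not pass the threshold. The lowest share of each tissue was in its stepped pool, at 8.91% in hippocampal 0 Gy pool 1 and 15.2% in ventricular 1 Gy pool 1. Without both stepped pools the dose differences were 7.003 and -8.71 points, in the same directions. Without the high-count regions they were 2.54 and -4.11 points, a difference of 6.65 points. In hippocampus the 1 Gy pools were also the far deeper ones, so dose and depth cannot be told apart there.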

How the results depend on the processing

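With 2 pools per group, only very large differences could pass the dose and tissue tests, and in the shallow ventricular libraries 3 counts already correspond to 27.02 to 60.4 CPM. The number of shared hippocampal regions fell from 1329 to 710 under a reciprocal overlap of 50% and to 663 among regions of the most common width in both lists, by construction. The higher count in shared regions was no longer past the threshold when each region was weighed equally (6.99 percentage points above 50% of comparisons, exact sign-flip permutation test, p = 0.0547); the cause was not tested. The difference between the tissues' log2 ratios ran from -0.11 to 0.63 when single libraries were left out, and its sign turned without ventricular 1 Gy pool 1 (-0.11). The count of hippocampal members called for dose ran from 0 to 404 when single libraries were left out, with 252 without 0 Gy pool 1 and 404 without 0 Gy pool 2; each such fit has 1 0 Gy library. With total counts as the scaling, 3 loci were called between the tissues; the cause was not tested. With the replicate number as a block, 0 members were called in every fit. For dose in edgeR, 7 of 1326 hippocampal members had an unadjusted p under 0.05, against 61 of all 21498 regions. In ventricle it was 8 of 350 members, against 16 of all 2252 regions. The labels do not say that equal numbers pair pools. Same-numbered ventricular pools deviated in opposite directions (correlation -0.12), and pairing them crosswise, an alternative chosen after seeing the data, also gave 0 calls. For the single regions named, 194 of 200 alternative values kept their direction and side of the threshold, and 6 kept their direction and passed it.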
